A study of Mus musculus with 6 samples.

Results

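Albumin and 9 other carrier proteins of blood plasma were followed at the transcript level in mouse liver after crizotinib. The members were the rows of the deposited gene table named Alb, Afp, Afm, Gc, Ttr, Rbp4, Trf, Ahsg, Fetub and Serpina6; all 10 were found among its 26123 genes, and all 10 were among the 16492 genes that passed the filter on low counts. Livers came from ICR mice, an outbred stock, with 3 animals labelled control and 3 labelled crizotinib, a drug that blocks kinases such as MET and ALK. Animals were dosed at 300 mg/kg, livers were collected 1 week later, and the controls' agent is named as saline. The study's wording leaves unclear which animals were dosed, so groups follow each sample's treatment label, and age and sex are not given here. No transgene or allele is named for either group, and the mice are described as a liver injury model. Messenger RNA was counted per gene.

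These proteins are made largely by hepatocytes and secreted into blood, where they carry ligands that are poorly soluble, reactive or easily lost. Albumin binds fatty acids, bilirubin and many drugs, and with alpha-fetoprotein (Afp), afamin (Afm) and the vitamin D-binding protein (Gc) it forms the albumin family. Transthyretin (Ttr) carries thyroxine and holds the retinol-binding protein (Rbp4) in the circulation, transferrin (Trf) carries iron, the fetuins (Ahsg and Fetub) bind mineral or inhibit proteases, and Serpina6 encodes the corticosteroid-binding globulin. In inflammation the liver is known to make less albumin and transthyretin, which are therefore called negative acute-phase proteins.

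The albumin family lies on mouse chromosome 5 (GRCm38). Alb (ENSMUSG00000029368, 90460897 to 90476602, plus strand), Afp (ENSMUSG00000054932, 90490737 to 90508907, plus strand) and Afm (ENSMUSG00000029369, 90518932 to 90553543, plus strand) follow each other, with gaps of 14134 bases between Alb and Afp and 10024 bases between Afp and Afm. Gc (ENSMUSG00000035540, 89417522 to 89457898, minus strand) lies 1002998 bases before Alb. Ahsg (ENSMUSG00000022868, 22891277 to 22899449) and Fetub (ENSMUSG00000022871, 22918334 to 22939778) are neighbours on chromosome 16, plus strand, 18884 bases apart.

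The promoters of the 4 albumin-family genes are shown because the family's members differed in how their levels varied over the libraries. Each is the 250 bases before the RefSeq transcript start (GRCm38.p6), 5′ to 3′ on the gene's strand. The windows are chr5:90460620-90460869 for Alb, chr5:90490464-90490713 for Afp, chr5:90518699-90518948 for Afm and, on the minus strand, chr5:89457899-89458148 for Gc. Capitals mark GTTAAT or its reverse complement ATTAAC, a motif known from promoters of liver genes.
Alb: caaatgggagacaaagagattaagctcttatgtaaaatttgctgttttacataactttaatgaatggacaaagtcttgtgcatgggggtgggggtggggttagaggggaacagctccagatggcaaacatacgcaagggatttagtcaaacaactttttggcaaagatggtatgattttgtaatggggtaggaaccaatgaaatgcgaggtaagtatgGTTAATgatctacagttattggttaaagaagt
Afp: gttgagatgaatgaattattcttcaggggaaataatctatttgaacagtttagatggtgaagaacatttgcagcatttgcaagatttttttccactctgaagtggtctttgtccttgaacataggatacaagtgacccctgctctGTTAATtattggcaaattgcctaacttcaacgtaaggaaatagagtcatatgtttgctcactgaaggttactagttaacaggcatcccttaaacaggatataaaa
Afm: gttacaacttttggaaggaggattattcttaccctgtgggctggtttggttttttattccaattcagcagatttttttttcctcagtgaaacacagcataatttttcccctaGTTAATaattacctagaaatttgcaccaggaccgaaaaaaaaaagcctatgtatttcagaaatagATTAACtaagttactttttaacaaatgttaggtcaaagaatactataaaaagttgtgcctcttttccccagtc
Gc: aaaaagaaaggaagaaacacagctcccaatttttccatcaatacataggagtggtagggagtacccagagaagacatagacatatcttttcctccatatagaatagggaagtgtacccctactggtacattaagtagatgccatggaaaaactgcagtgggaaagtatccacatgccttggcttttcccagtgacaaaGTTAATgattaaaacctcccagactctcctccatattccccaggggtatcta
All 4 windows held the motif, beginning 32 bases before the start in Alb, 105 in Afp, 138 and 73 in Afm and 52 in Gc. Of 32851 mouse promoter windows of the same length, 6.43% held it on either strand. RefSeq windows matched 7 of the 10 members, and those of Rbp4, Ahsg and Fetub did not hold these letters. The Ahsg window (chr16:22891765-22892014) and 1 of 2 windows each of Rbp4 and Fetub lie inside the gene spans given in this text. For Ahsg the bases before the start of that span were therefore not searched. The shorter motif CCAAT, searched on both strands as well, was in all 4 albumin-family windows, in 1 of 2 windows each of Rbp4 and Fetub and in 33.8% of all windows. The windows of Alb, Afp, Afm and Gc held 39.2%, 36%, 33.2% and 42% G or C. For both motifs the share over all windows was not matched for base composition. It therefore cannot tell whether the motifs are enriched in these 4 windows. A match is a description of letters, not evidence of binding.

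The libraries held between 51123361 and 67947970 counts, and 2 features of their make-up moved with single libraries. Genes encoded in mitochondrial DNA took 44.5%, 7.47% and 17.6% of counts in control replicates 1, 2 and 3 and 5.67%, 5.53% and 14.4% in crizotinib replicates 1, 2 and 3. A list of 29 acute-phase genes took 1.92%, 7.30% and 4.01% in the controls and 32.6%, 31.8% and 6.02% in crizotinib replicates 1, 2 and 3. Crizotinib replicate 3 thus stood within the controls' range for both measures. Values below are CPM, counts divided by library totals after TMM scaling, which sets aside the genes that differ most, unless FPKM (the deposited length-scaled values) or a share of counts is named. Where a library is given as a fold below the control mean, that mean is of the controls' log2 CPM, not of their CPM. The p-values measure the spread between the 3 mice of each group.

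Albumin was lower in every crizotinib liver than in every control, and the other members split into those lower in crizotinib replicates 1 and 2 alone or nearly so (Afm, Ttr, Rbp4 and Serpina6, with Afm also slightly below the controls in replicate 3), the scarce Afp, low in replicate 2, Gc, which stayed near the control level, and Trf, Fetub and Ahsg, which were above every control in replicates 1 and 2 (Trf and Fetub) or in replicate 1 (Ahsg). None of the 10 passed edgeR's quasi-likelihood test over all genes (adjusted p between 0.359 and 0.939, Benjamini-Hochberg), where 0.34% of all genes were called, 0.249% lower and 0.091% higher. None had an unadjusted p under 0.05 either, against 15.3% of all genes, and DESeq2 called 1 member, Alb, and 6.73% of all genes. Library by library, crizotinib replicate 1 was below every control for 7 members and above for 3 (33.2% and 34.2% of all genes), replicate 2 for 6 and 2 (33.1% and 32.5%) and replicate 3 for 3 and 0 (22.6% and 25.6%). The 7 include Afp, at 2.47 CPM beside 2.48 CPM in the lowest control, a gap within its counting error. The fitted log2 fold changes had a median of -0.55, with 7 of 10 below 0, beside a median of 0.00 and 50% below 0 over all genes tested.

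Alb had 55633, 44767 and 48848 CPM in control replicates 1, 2 and 3 and 14072, 16106 and 23149 CPM in crizotinib replicates 1, 2 and 3. The groups did not overlap, and the least reduced crizotinib library was replicate 3, at 2.14-fold below the control mean, beside 3.52-fold and 3.08-fold in replicates 1 and 2. The fitted log2 fold change was -1.48 ± 0.70 (SE; adjusted p by edgeR = 0.359), and DESeq2 gave -1.50 ± 0.33 (adjusted p = 0.000319). DESeq2 called 3.61% of all genes lower, with Alb the one member among them. Alb and Afm were the members whose CPM lay wholly below the controls, as it did for 10.3% of all genes. As a share of all counts Alb was the one member wholly below the controls (5.9% of all genes), and so it was outside the mitochondrial genes (9.7%). As a share of counts outside the mitochondrial genes, Alb was 6.21 ± 0.400% in controls and 2.15 ± 0.979% in crizotinib livers (SD, n = 3 each; two-sided exact permutation test p = 0.1, the smallest that 3 against 3 allows). Its rank among all genes by FPKM was 15, 1 and 2 in the controls and 13, 10 and 5 in the crizotinib libraries.

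Other hepatocyte markers did not share this pattern as a list. The 15 markers other than Alb had a median log2 fold change of 0.07, 8 above and 7 below 0, none passed edgeR's test, and none was at 0. Their summed level was 24189 to 33636 CPM in controls and 24783 to 28368 CPM in crizotinib livers. In bulk tissue fewer hepatocytes and less RNA per cell cannot be told apart. Of the 15 markers, 1 had CPM wholly below the controls and 1 wholly above, beside 10.3% and 10.7% of all genes. The lower marker was Apoa1, the main protein of high-density lipoprotein, named here after its values were seen. It had 5228 ± 718 CPM in crizotinib livers beside 9525 ± 3171 CPM in controls (edgeR adjusted p = 0.498). The higher marker was Tat, at 904 to 8708 CPM in crizotinib livers beside 492 to 528 CPM in controls (edgeR adjusted p = 0.147).

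**Figure D1:**
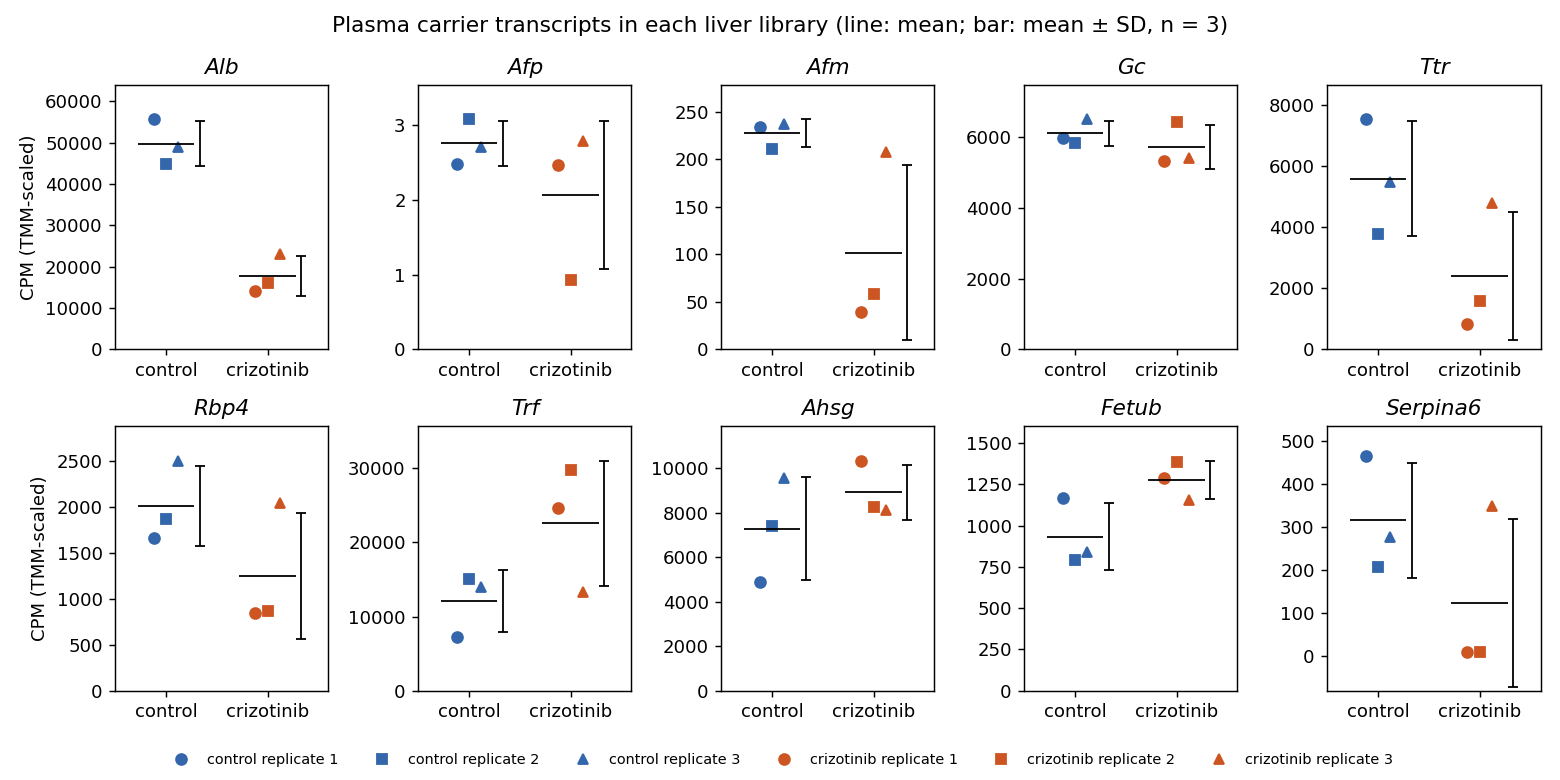
CPM of the 10 carrier genes (vertical axes, TMM-scaled, starting at 0 unless the SD bar runs below it) in 3 control (blue) and 3 crizotinib (orange) libraries, with marker shape for the replicate number, a line for the mean and a bar for mean ± SD. Alb is low in all 3 crizotinib libraries, whereas Afm, Ttr, Rbp4 and Serpina6 are low in replicates 1 and 2 and lie close to the controls in replicate 3.

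Afamin, a vitamin E-binding glycoprotein, had 234, 210.4 and 237 CPM in the controls and 39.2, 58.5 and 208 CPM in crizotinib replicates 1, 2 and 3. Crizotinib replicates 1 and 2 were 5.79-fold and 3.88-fold below the control mean, while replicate 3 was just under the lowest control. Afm overlaps the antisense gene Gm42109, which had at most 62 counts in any library next to at least 2030 for Afm, and the strand setting of the counting is not known here. As a share of counts the Afm groups overlapped. The fitted log2 fold change was -1.16 ± 0.60 (SE; adjusted p by edgeR = 0.408). Without crizotinib replicate 3 it was -2.23 ± 0.33 (edgeR adjusted p = 0.0129), in a fit that called 4.72% of all genes lower.

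Alpha-fetoprotein, the albumin of the fetus and of some liver tumours, was scarce in every library. It had 2.48, 3.07 and 2.70 CPM in the controls and 2.47, 0.931 and 2.79 CPM in crizotinib replicates 1, 2 and 3, from 50 to 201 counts, so counting error alone gave 95% Wilson intervals of 13.9% to 28% of the value on either side. Crizotinib replicate 2 was low and the other crizotinib libraries were at the control level (log2 fold change -0.41 ± 0.46 SE, adjusted p by edgeR = 0.701). The antisense gene Gm43449, which overlaps Afp, had 3 to 26 counts. Of 9 other genes of fetal liver, yolk sac or dividing cells, none passed edgeR's test. The imprinted genes H19 and Dlk1 had 2.08 ± 1.23 and 4.15 ± 3.65 CPM in controls and 9.14 ± 3.09 and 26.4 ± 9.20 CPM in crizotinib livers, and the mitosis genes Top2a and Mki67 had 4.40 ± 1.68 and 4.97 ± 3.37 CPM in controls and 1.45 ± 0.323 and 1.77 ± 0.804 CPM in crizotinib livers (edgeR adjusted p between 0.153 and 0.288 for these 4).

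Gc, which carries vitamin D and binds actin released from damaged cells, stayed within a narrow range. It had 5973, 5836 and 6496 CPM in the controls and 5309, 6434 and 5399 CPM in crizotinib replicates 1, 2 and 3, and the fitted log2 difference was -0.09 ± 0.50 (SE; adjusted p by edgeR = 0.939). Crizotinib replicates 1 and 3 were just below the lowest control, replicate 2 was within the control range, and the spread of Gc within the crizotinib group, a coefficient of variation of 10.9%, was smaller than that of Alb (26.8%) or Afm (90.6%). Within the family, Alb and Afm therefore had CPM below every control in all crizotinib libraries, as did 10.3% of all genes, and Afp and Gc did not. For Afm this rested on a narrow margin in crizotinib replicate 3, at 208 beside 210.4 CPM in the lowest control, and its shares of counts overlapped. No gene handling vitamin D passed the test: Cyp27a1 and Cyp2r1, which hydroxylate it, had log2 fold changes of 0.02 and 0.29, and its receptor gene Vdr had at most 0.745 CPM. Of this list of 5 genes 3 were tested, all with a fitted fold change above 0.

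**Figure D2:**
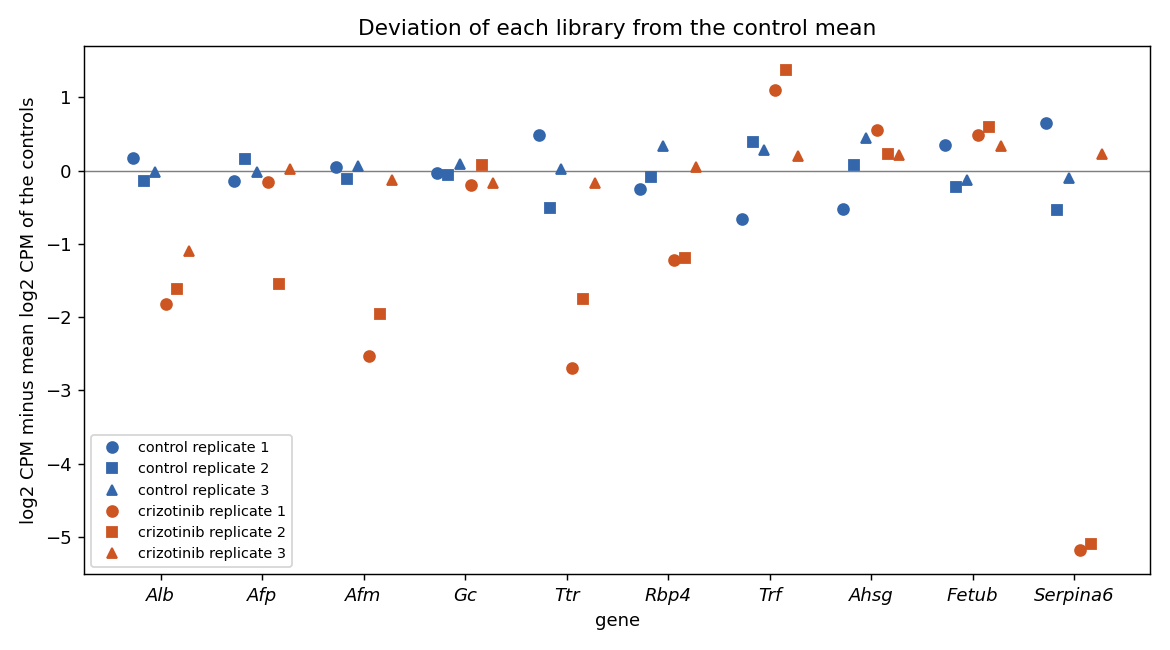
Log2 CPM of each library minus the mean log2 CPM of the controls (vertical axis) for the 10 carrier genes, with controls in blue, crizotinib libraries in orange and marker shape for the replicate number. Serpina6 reaches -5.18 and -5.09 in crizotinib replicates 1 and 2 but 0.23 in replicate 3, and Alb is the gene farthest below the controls in replicate 3, at -1.10.

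Transthyretin and retinol-binding protein, which circulate as a complex, were both low in crizotinib replicates 1 and 2. Ttr (ENSMUSG00000061808) lies on chromosome 18, at 20665280 to 20674321 on the plus strand, and Rbp4 (ENSMUSG00000024990) on chromosome 19, at 38116629 to 38125281 on the minus strand. Ttr had 7541, 3780 and 5485 CPM in the controls and 836, 1595 and 4786 CPM in crizotinib replicates 1, 2 and 3. The first and second crizotinib libraries were 6.44-fold and 3.38-fold below the control mean, and the third was inside the control range (log2 fold change -1.22 ± 0.74 SE, adjusted p by edgeR = 0.468). Rbp4 had 1657, 1867 and 2502 CPM in the controls and 846, 867 and 2044 CPM in the crizotinib libraries, with the same libraries low, by 2.34-fold and 2.28-fold (log2 fold change -0.68 ± 0.52 SE, adjusted p by edgeR = 0.567). Without crizotinib replicate 3 the log2 fold changes were -2.22 for Ttr and -1.25 for Rbp4, still short of the threshold (edgeR adjusted p = 0.0597 and 0.101). Per length, Ttr exceeded Rbp4 by 5.15-, 2.29- and 2.48-fold FPKM in the controls and by 1.12-, 2.08- and 2.65-fold in crizotinib replicates 1, 2 and 3, and the groups overlapped.

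Genes that store and use retinol did not pass the test. Of 12 tested, 8 had a fitted fold change above 0. Lrat, which esterifies retinol in stellate cells, had 8.63 ± 4.20 CPM in controls and 2.15 ± 0.874 CPM in crizotinib livers (edgeR adjusted p = 0.147). The retinaldehyde reductase Rdh11 had 49.3 ± 16.9 and 117 ± 30.5 CPM (edgeR adjusted p = 0.190) and Bco1, which cleaves carotene, had 7.31 ± 2.92 and 17.0 ± 17.4 CPM. Markers of stellate cells, a list that also holds Lrat, were lower in level: 11 of 12 were fitted below 0 (median -1.37) and none passed edgeR's test. By edgeR 7 had an unadjusted p under 0.05, all lower, as did 7.25% of all genes in that direction. The markers' summed level was 299.7 to 545 CPM in controls and 183 to 277 CPM in crizotinib livers. Their part in the values of Lrat was not tested.

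Thyroxine-binding globulin, another thyroxine carrier of plasma, differed in the opposite direction from Ttr. Its gene Serpina7 had 4.72, 8.43 and 8.86 CPM in the controls and 113, 258 and 16.8 CPM in crizotinib replicates 1, 2 and 3. All crizotinib libraries were above all controls, with a log2 fold change of 4.14 ± 0.89 (SE; adjusted p by edgeR = 0.115). Among 7 tested genes of thyroid hormone handling, none passed; Slc16a10, a transporter of thyroid hormone and aromatic amino acids, had 30.9 to 50.8 CPM in controls and 74.0 to 137 CPM in crizotinib livers, and Dio1, the hepatic deiodinase, had 40.0 CPM in crizotinib replicate 2 and at most 5.40 CPM elsewhere.

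Serpina6, the gene of corticosteroid-binding globulin, had the widest range of all members on the log scale. It lies on chromosome 12 (ENSMUSG00000060807, 103646630 to 103657212, minus strand). Serpina6 had 466, 206 and 277 CPM in the controls, 8.22 and 8.75 CPM in crizotinib replicates 1 and 2 and 349 CPM in replicate 3. Crizotinib replicates 1 and 2 were thus 36.2-fold and 34.0-fold below the control mean, on 426 and 470 counts, while replicate 3 was among the controls. The log2 fold change fitted over all 6 libraries was -1.37 ± 1.30 (SE; adjusted p by edgeR = 0.647). On the same libraries limma gave -2.96 on log2(FPKM + 1) and -3.13 on log2(FPKM + 0.1), also short of the threshold (limma adjusted p = 0.358 and 0.324). Without crizotinib replicate 3 it was -5.24 ± 0.52 (edgeR adjusted p = 0.00417), and 2 of the 10 members, Serpina6 and Afm, were then called, both lower, in a fit that called 8.83% of all genes, 4.72% lower. With control replicate 1 left out as well, a choice made after seeing the data, the same 2 members were called lower, against 10.3% of all genes in either direction and 5.52% lower. Its share of the counts of the 10 members was 0.257% to 0.549% in controls, 0.014% in both crizotinib replicates 1 and 2, and 0.596% in crizotinib replicate 3.

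Among glucocorticoid-responsive genes, Tat and Zbtb16 were high in the crizotinib libraries where Serpina6 was low, but Tsc22d3 was low in them. Tat, tyrosine aminotransferase, had 515 ± 20.5 CPM in controls and 8708, 5717 and 904 CPM in crizotinib replicates 1, 2 and 3 (edgeR adjusted p = 0.147), and Zbtb16 had 2.33 ± 0.919 CPM in controls and 18.1, 18.1 and 1.28 CPM. Dusp1 and Sgk1 had log2 fold changes of 1.34 and 1.40, with controls at 7.57 to 14.3 and 7.17 to 13.9 CPM. In crizotinib replicates 1, 2 and 3 Dusp1 had 46.1, 25.5 and 7.55 CPM and Sgk1 53.2, 17.6 and 4.22 CPM. Replicate 3 was thus below every control for both. Tsc22d3, named after its values were seen, had 50.4 to 62.6 CPM in controls and 27.8 and 21.2 CPM in crizotinib replicates 1 and 2. Crizotinib replicate 3 was above every control for Tsc22d3, and the log2 fold change was -0.50. Fkbp5 and Pck1 had log2 fold changes of 1.03 and 0.15. The groups overlapped for every gene of this list other than Tat, which was higher in all crizotinib libraries, as were 10.7% of all genes. Of the 10 genes of this list none passed edgeR's test, 7 were fitted above 0, and the median was 1.04. The glucocorticoid receptor gene Nr3c1 and the cortisone-activating Hsd11b1, named after their values were seen, had log2 fold changes of -0.19 and -0.74, with Hsd11b1 at 175, 183 and 515 CPM in crizotinib replicates 1, 2 and 3. The acute-phase share given above was high in the same libraries, and its part in these values was not tested.

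Transferrin was higher in crizotinib replicates 1 and 2 than in any control. Its gene (ENSMUSG00000032554) lies on chromosome 9, at 103204001 to 103230444 on the minus strand. Trf had 7281, 15068 and 13929 CPM in the controls and 24604, 29821 and 13277 CPM in crizotinib replicates 1, 2 and 3. Replicate 3 was inside the control range, so the groups overlapped (log2 fold change 0.90 ± 0.68 SE, adjusted p by edgeR = 0.563). Control replicate 1, with the largest mitochondrial share, was the lowest library. As a share of counts outside the mitochondrial genes, Trf was 1.53 ± 0.603% in controls and 2.53 ± 0.608% in crizotinib livers (SD, n = 3 each; two-sided exact permutation test p = 0.2).

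None of 14 iron-handling genes passed the test, and 7 were fitted on each side of 0. The iron exporter Slc40a1 (ferroportin) had 129 ± 31.0 and 47.0 ± 15.7 CPM, and Hamp, which encodes the hormone hepcidin that removes ferroportin, had 195 ± 141 CPM in controls and 960 ± 283 CPM after crizotinib. The iron importers Slc11a2 and Slc39a14 had 112, 141 and 22.6 CPM and 762, 854 and 184 CPM in crizotinib replicates 1, 2 and 3, beside control means of 20.1 and 143 CPM. For these 4 genes edgeR adjusted p lay between 0.148 and 0.171. Tfrc, the transferrin receptor, had 19.5 ± 8.55 and 41.3 ± 8.05 CPM, with no overlap between the groups (edgeR adjusted p = 0.230).

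The CPM ranges of both fetuins overlapped between the groups. Ahsg, a glycoprotein that binds calcium phosphate, had 4900.4, 7405 and 9547 CPM in the controls and 10340.3, 8253 and 8145 CPM in crizotinib replicates 1, 2 and 3, of which replicate 1 was above every control (log2 fold change 0.29 ± 0.56 SE, adjusted p by edgeR = 0.833). Fetub, an inhibitor of the egg-coat protease ovastacin, had 1166, 789 and 841 CPM in the controls and 1286, 1387 and 1155 CPM in the crizotinib libraries. Control replicate 1 overlapped the crizotinib values (log2 fold change 0.45 ± 0.40 SE, adjusted p by edgeR = 0.620). As a share of all counts Fetub was higher in every crizotinib library, at 0.135 ± 0.00483% against 0.0868 ± 0.0114% (SD, n = 3 each; two-sided exact permutation test p = 0.1, the smallest possible), as were 10.7% of all genes. Outside the mitochondrial genes its shares overlapped. Gm30505, antisense to Ahsg, had at most 93 counts.

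The members' profiles over the 6 libraries were compared by the root mean square difference of log2 CPM centred on each gene's mean. Of the 45 pairs of members, Afm and Ttr were closest, at 0.27, followed by Gc and Fetub at 0.35 and Gc and Ahsg at 0.38. Neighbouring genes were not the closest pairs: Alb and Afm differed by 0.51, Alb and Afp by 0.69, Afp and Afm by 0.87 and Ahsg and Fetub by 0.46. Serpina6 was no closer than 1.45 to any other member and farthest from Trf, at 3.08. Among 4310 other genes with a mean FPKM of at least 5, those most like Alb were Slc35e2 (0.22), Cited2, Cyp2d10, Gm10319 and Prkd3 (0.24 each). Their CPM in crizotinib replicate 3 lay between the controls and crizotinib replicates 1 and 2, as that of Alb did. This order follows from choosing them for likeness to Alb over the same libraries and is not a separate result. None of these genes passed edgeR's test (adjusted p between 0.0829 and 0.280).

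Together the 10 genes took 5.64%, 10.1% and 8.76% of counts in control replicates 1, 2 and 3 and 5.81%, 6.30% and 7.09% in crizotinib replicates 1, 2 and 3. These ranges overlapped, with control replicate 1 lowest. Outside the mitochondrial genes the sums were 10.6 ± 0.369% and 7.04 ± 1.11% (SD, n = 3 each) and did not overlap, and without Alb the other 9 took 4.34 ± 0.731% and 4.89 ± 0.205%. With the acute-phase genes left out of the total instead, the 10 members took 8.58 ± 2.60% and 8.47 ± 0.851%. Within the 10, Alb gave 55.4% to 65.6% of the members' counts in controls and 24.5%, 25.0% and 39.6% in crizotinib replicates 1, 2 and 3, and Trf gave 8.58% to 18.9% in controls and 42.9%, 46.2% and 22.7%.

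**Figure D3:**
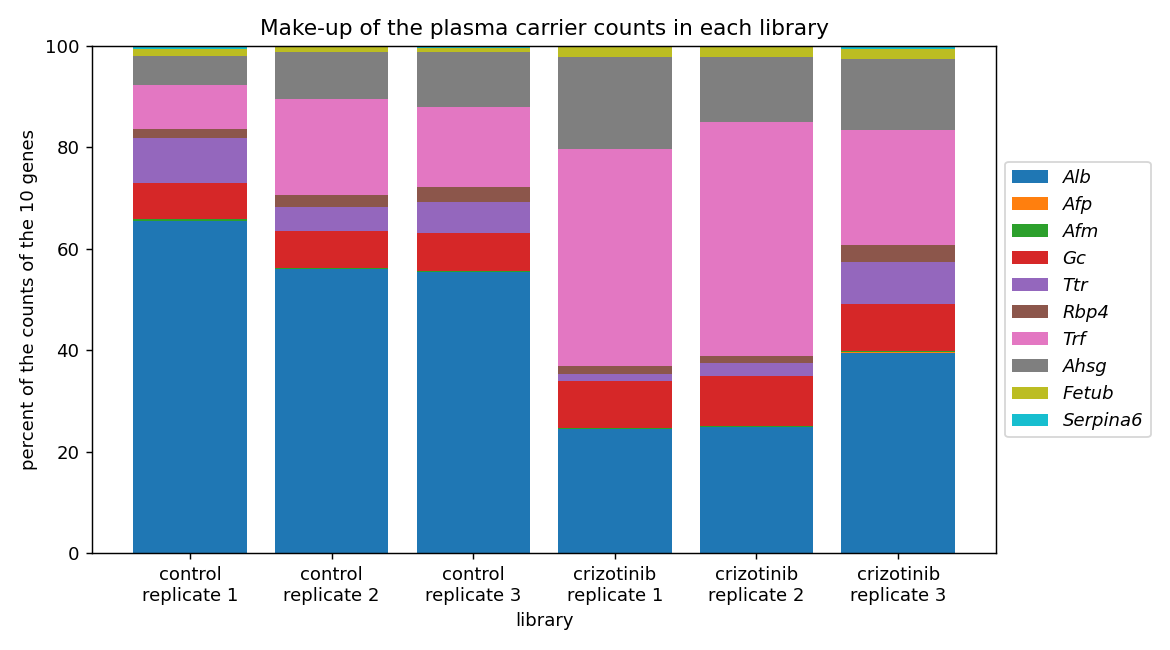
Stacked bars of the percent of the 10 genes' counts (vertical axis) that each gene supplied in each of the 6 libraries. Alb is the largest part in the 3 controls and in crizotinib replicate 3, and Trf is the largest part in crizotinib replicates 1 and 2, at 42.9% and 46.2%.

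Per length, the order of mean levels also differed between the groups. The gene lengths behind the deposited FPKM are not known here, and levels of different genes, unlike those of 1 gene over the libraries, depend on them. In controls mean FPKM was 18218 for Alb, 3858 for Ttr, 3413 for Trf, 3021 for Ahsg, 2897 for Gc, 1330 for Rbp4, 399 for Fetub, 144 for Serpina6, 65.0 for Afm and 0.725 for Afp. The ranges of Ttr, Trf, Ahsg and Gc overlapped from each to the next, and all other neighbours were separate. In crizotinib livers Alb, at 7534 ± 2898 FPKM, and Trf, at 6439 ± 1849 FPKM (SD, n = 3), overlapped and came first and second. They were followed by Ahsg at 3939, Gc at 3003, Ttr at 2098, Rbp4 at 945, Fetub at 629.8, Serpina6 at 75.5, Afm at 34.8 and Afp at 0.606 FPKM. The ranges of Gc, Ttr, Rbp4 and Fetub overlapped from each to the next, and so did those of Serpina6 and Afm. Trf and Alb stood at a ratio of 0.0923, 0.237 and 0.201 FPKM in the controls and 1.23, 1.31 and 0.405 in crizotinib replicates 1, 2 and 3. Ratios to Alb within a library were above every control in all crizotinib libraries for Gc, Rbp4, Trf, Ahsg and Fetub, 5 of 9, where 72.7% of all genes gave the same, a larger share than among the members.

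**Figure D4:**
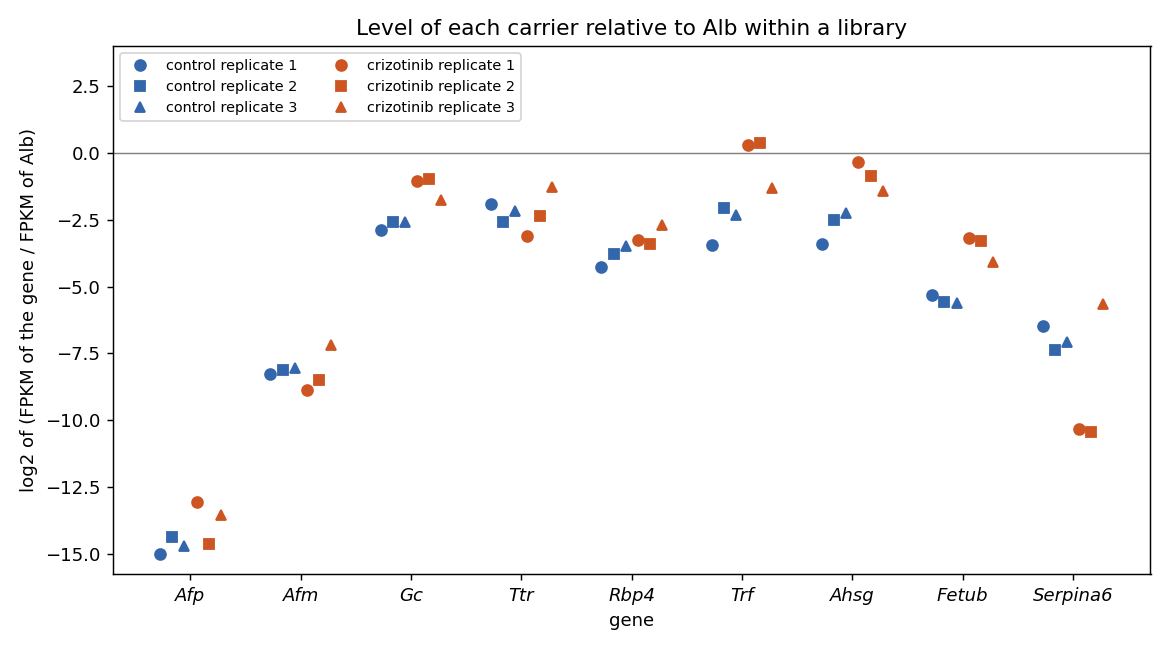
Log2 of each gene's FPKM over that of Alb within a library (vertical axis) for the other 9 carrier genes, with controls in blue, crizotinib libraries in orange and marker shape for the replicate number. Trf lies above 0, that is above Alb, in crizotinib replicates 1 and 2 only, while the Ttr and Afm ratios of the groups overlap.

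Plasma carriers outside the 10 members were compared in the same way. Of 22 tested, none passed edgeR's test, 18 were fitted above 0, and the median was 1.07. Orm2 and Orm3, orosomucoids that bind basic drugs, had 44.1 to 148 and 4.73 to 31.9 CPM in controls and 436 to 2419 and 97.0 to 129 CPM in crizotinib livers, and Lcn2, which binds bacterial siderophores, had 204 ± 173 and 6366 ± 5076 CPM (edgeR adjusted p = 0.0988, 0.153 and 0.142). Of this list, 9 genes are also on the acute-phase list, of whose 29 genes 27 had a fitted fold change above 0 (median 2.57). None of the 29 passed edgeR's test. By edgeR 24 had an unadjusted p under 0.05, all higher, as did 8.06% of all genes in that direction.

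Transcription factors known to act on these genes did not pass the test. Of 23, 14 were fitted above 0 and the median was 0.07. Cebpd and Cebpb, induced in the acute phase, had 54.5, 79.4 and 4.66 CPM and 325, 326 and 126 CPM in crizotinib replicates 1, 2 and 3, beside 5.57 ± 0.904 and 101 ± 30.2 CPM in controls. Nr5a2, a nuclear receptor, had 25.4 ± 7.78 and 51.8 ± 14.8 CPM, and Nfil3, a repressor in the clock, had 16.6 ± 3.29 CPM in controls, 100.3 and 75.8 CPM in the first and second crizotinib library and less than any control in the third (edgeR adjusted p between 0.167 and 0.247 for these 4). The following were named after their values were seen. Hnf4a and Cebpa had log2 fold changes of 0.91 and -0.37, and Dbp, the clock-controlled factor named for its binding to the Alb promoter, had 118, 109.9 and 168 CPM in controls and 8.07, 5.87 and 104 CPM in crizotinib replicates 1, 2 and 3 (edgeR adjusted p = 0.446).

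Receptors and export machinery were compared as well. Among 14 tested genes for uptake and recycling of carriers 7 were fitted above and 7 below 0, and none passed. B2m, the light chain of the FcRn receptor that rescues albumin from breakdown, had 3622 ± 1081 and 1381 ± 775 CPM with no overlap (edgeR adjusted p = 0.310), and its heavy chain Fcgrt had 86.1 to 138 CPM in controls and 55.3 to 94.7 CPM in crizotinib livers (edgeR adjusted p = 0.433). Lrp1, a receptor that clears lipoproteins and protease complexes, had a log2 fold change of 0.76. Of 28 genes for protein export through the endoplasmic reticulum 25 were fitted above 0 (median 0.53) and none passed. By edgeR 7 had an unadjusted p under 0.05, all higher, as did 8.06% of all genes in that direction. The chaperones Hspa5 and Pdia4 had 289 ± 119 and 121 ± 31.2 CPM in controls and 819 ± 102 and 272 ± 53.5 CPM in crizotinib livers. Srp19, of the signal recognition particle, and Spcs2, of the signal peptidase, had 8.42 to 12.5 and 48.6 to 79.7 CPM in controls and 16.9 to 19.4 and 102.5 to 141 CPM in crizotinib livers (edgeR adjusted p between 0.185 and 0.219 for these 4).

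Of 207 listed genes tested, 7 passed edgeR's test (3.38%, against 0.34% of all genes, either direction), and all 7 were markers of Kupffer cells, the liver's macrophages, which fell. They were Clec4f, Cd5l, C1qb, C1qc, Folr2, Cd68 and Csf1r, out of 12 markers, of which 11 had a fitted fold change below 0 (median -2.74). The summed level of the 12 was 389.9 to 506 CPM in controls and 40.9 to 72.6 CPM in crizotinib livers, with no marker at 0 in every library. The lists were chosen with earlier results of these data known, so the larger share called among the listed genes is not a separate result. None of the 207 passed when any single library other than crizotinib replicate 3 was left out, in fits that called at most 0.0176% of all genes. Without crizotinib replicate 3, 56 passed, in a fit that called 8.83% of all genes. No endothelial marker of 10 and no cholangiocyte marker of 5 passed, with medians of -1.11 and 0.77. Their summed levels were 85.0 to 216 and 54.9 to 103 CPM in controls and 52.8 to 83.6 and 94.9 to 180.4 CPM in crizotinib livers. The part of these cell types in the levels of the carriers was not tested.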

How the data were processed

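Liver RNA of 6 ICR mice was sequenced, with 3 libraries per group taken from the treatment label; per the labels' protocols, RNA came from a Qiagen RNeasy kit and libraries from a SMARTer mRNA-seq kit. The read counts deposited by the authors, per the file headers, were whole numbers per gene, and the FPKM values deposited by the authors were, by their unit, scaled by length and library total, with the gene lengths not stated. The aligner, the counting tool and its strand remain not given in the sources used here. For all 10 members, the start and end, and those of 89.65% of 26060 matched genes, equalled GENCODE M21 on GRCm38. Promoter sequences are RefSeq's (GRCm38.p6).

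Library sizes were TMM-scaled, and genes were filtered with filterByExpr (minimum count 10, minimum total 15) and 16492 of them tested by the quasi-likelihood method of edgeR (4.0.16, R 4.3.3), two-sided, Benjamini-Hochberg adjusted, threshold 0.05; SE is the log2 fold change over the square root of F. The filter removed at most 0.0553% of a library's counts. The common biological coefficient of variation was 0.470. Shares used exact permutation tests over 20 labelings (scipy 1.17.1). For members other than Afp, the 95% Wilson interval of a share spanned at most 9.51% of it on either side, counting error only. Log2 CPM used a prior count of 0.5. The edgeR fit was also run on simulated counts with known fold changes. These had the same dispersion for every gene and no library that stood apart, so they do not test such cases. Alternatives were DESeq2 (1.42.0), its size factors, limma (3.58.1) on log2(FPKM + 1) and log2(FPKM + 0.1), no filter, a replicate block, removal of mitochondrial or acute-phase genes, and each library left out.

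The members and the 16 gene lists were chosen with earlier results of these data known. All members were named; of each list, the genes past the threshold, or else up to 4 with the smallest p. Of the listed genes, 2 were not in the table used here. Some genes that this rule or the lists would name are not reported here.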

Additional observations from a re-analysis of the deposited data

How the results depend on the processing

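The count of 0 members past the threshold became 1 under DESeq2 (Alb), 2 without crizotinib replicate 3 (Afm and Serpina6) and 2 with control replicate 1 and crizotinib replicate 3 both left out (Afm and Serpina6), a setting chosen after seeing the data; leaving out single libraries gave 0 to 2. Leaving out single libraries, the members' median log2 fold change ranged from -0.98 to -0.33, and the summed share of the members, crizotinib minus control, from -3.01 to -0.80 percentage points. The 7 listed genes past the threshold (0.34% of all genes called) became 61 under DESeq2 (6.73%) and 0 with the replicate block (0%). Without single libraries they became 0 to 56, 56 being the value without crizotinib replicate 3 (8.83% of all genes called). In the single genes, the sign of Gc turned on the FPKM scale (log2 fold change 0.10 with either pseudocount), and its difference in share, 0.014 percentage points, became -0.098 without mitochondrial genes in the total and ranged from -0.083 (control replicate 1 left out) to 0.086 over single libraries left out, with -0.0094 where crizotinib replicate 3 was omitted. The difference in share of Afp ranged from -0.000103 to 2.09e-05 percentage points, above 0 with replicate 2 of either group omitted. All members other than Gc kept the sign of their fold change under every setting run. The value of Serpina6, -1.37 over all libraries, was -2.96 and -3.13 on the FPKM scale with pseudocounts of 1 and 0.1 and ranged from -5.24 (crizotinib replicate 3 left out) to -0.81.

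Deviations of same-numbered libraries correlated at -0.14, 0.12 and -0.09, not above 0.1 in every pair, so the numbers were not taken to pair the samples. Separately from that check, the fit with the replicate block, which has fewer residual degrees of freedom, called 0 genes and gave -3.74 for Serpina6. With 3 libraries per group the precision is limited by the spread between animals, and for Afp also by its 50 to 201 counts.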
